A study of Homo sapiens with 8 samples.

Results

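ATF4 is the transcription factor that cells make when amino acids run short or when unfolded protein collects in the endoplasmic reticulum (ER). It is described here with 9 genes it is known to work with or to switch on. The 10 genes were picked by name: the transcription factors ATF4, ATF3 and DDIT3, the feedback genes TRIB3 and SESN2, the amino-acid synthesis enzymes ASNS, PHGDH and PSAT1, and SLC7A11 and CHAC1, which act on cystine and glutathione. All 10 were found among 58336 gene identifiers of the count table, and all 10 were among the 15220 genes with enough counts to be tested.

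Poly(A) RNA sequencing had been done on SUM159 cells, an established breast cancer line of the triple-negative kind with mesenchymal features. Of 8 libraries, 2 came from cells with the genotype label ITGB4 high and 3 from clone 1 of cells labelled ITGB4 low, all grown in dishes with no treatment given in the labels. ITGB4 is an integrin subunit of hemidesmosomes. The other 3 libraries, called lung-recovered here, came from clone 1 cells given to mice by tail vein and taken back out of their lungs after the mice had been given bleomycin, a drug that injures and inflames the lung, by the trachea. These cells were freed from the lung tissue, kept in a dish overnight and sorted for tdTomato, a red fluorescent protein. Clone 1 is the source of both the ITGB4-low and the lung-recovered libraries. Between the dish-grown groups, features of this 1 clone therefore cannot be told apart from those of low ITGB4. The lung-recovered libraries did not have low ITGB4 mRNA, as given below, but they also differ from both dish-grown groups by the lung stay. No group used here had a stay in the lung without bleomycin, or the sort without the lung, so stay, drug and handling cannot be told apart either. The labels call the libraries biological replicates but name no culture or animal, so the p-values cover only the spread among the libraries at hand.

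When eIF2alpha, a translation initiation factor, is phosphorylated by one of its kinases, protein synthesis slows in general while the ATF4 message is translated more. ATF4 protein then pairs with C/EBP proteins or other partners and switches on genes that import amino acids, make them, charge them onto tRNAs and defend against oxidation. Much of the control of ATF4 acts on translation, so its mRNA level and its protein activity can move apart, and only mRNA was measured here.

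The libraries held 20.41 to 27.22 M counts. ITGB4 was at 376.2 and 419.6 CPM (counts scaled to library size) in ITGB4-high and at 5.29 to 9.13 CPM in ITGB4-low, as their labels say. It stood at 375.3 to 406.6 CPM in the lung-recovered libraries, whose genotype label is ITGB4 low. Of markers for cells that a sort from lung could hold, CD3E, MS4A1, CDH1, SFTPA1 and SCGB1A1 had 0 counts in all 8 libraries. The 6 lymphocyte markers summed to at most 0.201 CPM. The summed level of 8 myeloid markers was 3.66 to 4.94 CPM in ITGB4-high, 6.39 to 6.75 in ITGB4-low and 7.99 to 8.94 in lung-recovered libraries. Of 4 tested myeloid markers, 2 were called higher in ITGB4-low and 3 in lung-recovered than in ITGB4-high libraries. In lung-recovered against ITGB4-low 1 was called higher. Of all tested genes 28.6%, 26.2% and 14.7% were called higher in these comparisons. Over all libraries, 6 endothelial markers summed to 2.78 to 5.62 CPM and 8 lung epithelial markers to 0.709 to 2.05 CPM. Of each list 2 were tested, and 1 of each was called higher in ITGB4-low than in ITGB4-high. In lung-recovered against ITGB4-low, 2 endothelial and 1 lung epithelial markers were called lower. In lung-recovered against ITGB4-high, 1 and 0 were called lower, and 0 higher. Of all tested genes 15.4% and 25.0% were called lower in these last 2 comparisons. Of the 8 lung epithelial markers, 5, 5 and 3 had 0 counts in every library of ITGB4-high, ITGB4-low and lung-recovered cells. The 6 markers of lung fibroblasts and smooth muscle summed to 50.1 to 58.9, 44.5 to 51.5 and 148 to 155 CPM in the same order. COL1A1 and PDGFRA, which mesenchymal tumour cells can also express, were called higher in lung-recovered than in ITGB4-low libraries, while TCF21, DES and MYH11 were at most 0.28 CPM. ACTA2, the other tested marker of this list, was not called in that comparison. Where mouse and human sequences match, a mouse read can also fall on the human gene. The part of such cells in the results was not tested. In bulk RNA, fewer cells of a type and less RNA per cell cannot be told apart.

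The promoters of 9 of the 10 genes were in the RefSeq promoter table (GRCh38.p14), with 15 start sites between them. In the 250 bases before each start, 3 of the 9 genes had the core of the C/EBP-ATF response element, the site that ATF4 binds with a C/EBP partner, searched as TGATGNAA on both strands. The 3 matches are shown because they lie before genes that moved in different directions: ASNS was lower, and ATF3 and CHAC1 higher, in ITGB4-low than in ITGB4-high libraries. Each is given 5′ to 3′ on the strand of its gene with the match in capitals.
ASNS: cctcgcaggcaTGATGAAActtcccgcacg
ATF3: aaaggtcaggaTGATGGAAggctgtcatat
CHAC1: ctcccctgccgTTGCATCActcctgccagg
The ASNS stretch is chr7:97872458-97872487 on the minus strand, with the match 68 to 61 bases before the start. The ATF3 stretch is chr1:212565205-212565234 on the plus strand, with the match 191 to 184 bases before the start. In CHAC1 (chr15:40953251-40953280, plus strand) the match lies on the opposite strand, 209 to 202 bases before the start. The starts are those of RefSeq, and the ASNS and CHAC1 matches lie within exons that GENCODE 29 annotates for the same genes, while the ATF3 match lies in none. Of all 27305 genes in the table, 3.89% had this core in such a window. The cAMP response element TGACGTCA, bound by ATF and CREB factors, was found before none of the 9 genes and before 2.03% of all genes. The antioxidant response element core TGACNNNGC was found before none of the 9 and before 13.2% of all genes. The motifs did not overlap one another in these 9 genes, and 6 genes had no match. A match is a run of letters and does not show binding, and a missing match in these windows does not show that a gene lacks a site.

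Levels of different genes were compared as CPM per kilobase of each gene's principal transcript. In ITGB4-high libraries the serine-pathway enzyme PSAT1 had the highest mean level (406.4 CPM per kilobase), followed by TRIB3 (345.9), ATF4 itself (257.0) and PHGDH (153.9). SESN2, DDIT3 and SLC7A11 lay close together at 65.4, 65.3 and 62.9, and their libraries overlapped. CHAC1 (38.8), ASNS (12.6) and ATF3 (10.99) were lowest on this scale. In ITGB4-low libraries the order at the top was the same, while CHAC1, at 68.5 CPM per kilobase, overlapped DDIT3 (63.8) and stood above its own ITGB4-high level. ATF3 (14.8) was then above ASNS (9.16), and in lung-recovered libraries it was at 11.5 beside 9.99 for ASNS. The length chosen matters most for PHGDH, which was at 43.2 CPM per kilobase of all its annotated exons in ITGB4-high.

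**Figure D1:**
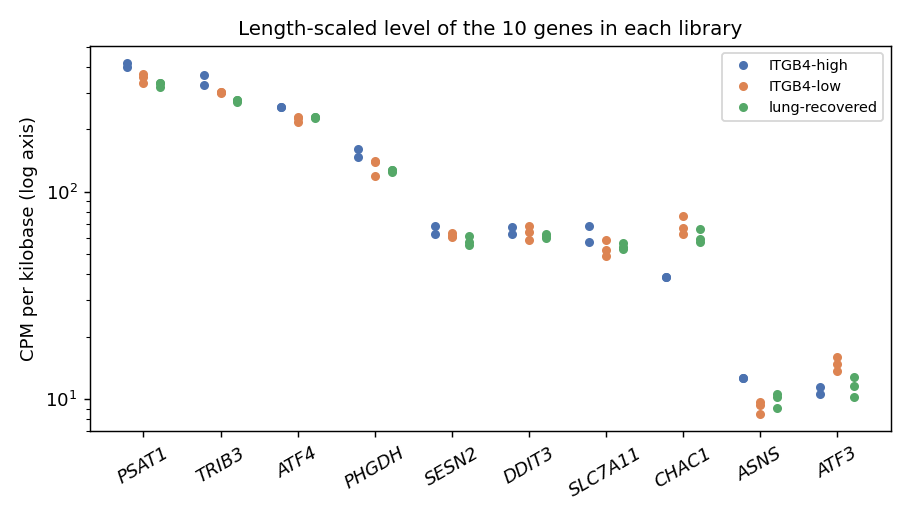
Level of each of the 10 genes in each library, in CPM per kilobase of principal transcript on a log axis, with 1 point per library and a colour per group. PSAT1, TRIB3, ATF4 and PHGDH lie above the rest in all 8 libraries, and ASNS and ATF3 lie lowest.

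Some counts are less certain than others. How reads were counted, with which program and strand setting, is not given in the sources used here. ASNS shares 44.6% of its 4455 annotated exon bases with AC079781.5 on the same strand, a gene at 0.69, 0.67 and 0.86 CPM in ITGB4-high, ITGB4-low and lung-recovered libraries. Reads from the shared bases could be given to either gene or to neither, which makes the ASNS level uncertain. DDIT3 shares 27.2% of its exon bases with MARS on the opposite strand. In the 3 groups in that order MARS was at 528.9, 524.1 and 519.0 CPM, and DDIT3 at 61.4, 60.0 and 57.4 CPM. Since the strand setting is not known, the DDIT3 level is uncertain as well. DDIT3 shares 8.03% with AC022506.1 on the same strand, which had 0 counts. It also shares 4.44% with MBD6 on the opposite strand, a gene at 97.5, 69.7 and 63.3 CPM in the 3 groups in that order. SLC7A11 shares 8.97% with SLC7A11-AS1 on the opposite strand, which had 0, 10 and 2 counts in those groups. The 10 genes had between 412 counts (ASNS) and 24287 counts (TRIB3) in a library.

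In dishes, ITGB4-low clone 1 cells were first compared with ITGB4-high cells. ATF4 mRNA and 5 of its companion genes (TRIB3, ASNS, PHGDH, PSAT1 and SLC7A11) fell in ITGB4-low, by 12.5 to 27.3% each. ATF3 and CHAC1 rose, and DDIT3 and SESN2 did not pass the test. By edgeR's quasi-likelihood test at an adjusted p under 0.05, 2 of the 10 genes were therefore higher and 6 lower, where 28.6% and 27.6% of all tested genes were higher and lower and 56.2% were called in either direction. The groups did not overlap in 7 of the 10 genes, against 68.7% of all tested genes. The median log2 fold change of the 10 genes was -0.20, beside 0.00 for all genes, whose quartiles were -0.27 and 0.35.

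ATF4 (ENSG00000128272, hg38 chromosome 22, 39519695 to 39522685) was at 518.3 and 519.4 CPM in the ITGB4-high libraries, at 439.0, 464.0 and 459.3 CPM in ITGB4-low and at 464.1, 462.2 and 460.0 CPM in lung-recovered libraries. Both ITGB4-high libraries stood above all 6 of clone 1 origin, and the clone 1 groups overlapped. The fall in ITGB4-low was small and steady, -0.19 on the log2 scale (SE 0.04, edgeR adjusted p = 0.000962). The 132 tested genes within 5 Mb of ATF4 had a median log2 fold change of -0.11 in the same comparison.

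ATF3 (ENSG00000162772, chromosome 1, 212565334 to 212620777) is a stress-induced factor of the same protein family that can repress as well as activate. Its level was 23.2 and 21.5 CPM in ITGB4-high, 32.4, 29.9 and 27.8 in ITGB4-low and 20.9, 23.6 and 25.9 in lung-recovered libraries. The ITGB4-low libraries were the highest and overlapped neither other group. ATF3 was 34.2% higher in ITGB4-low than in ITGB4-high (log2 fold change 0.42, SE 0.09, edgeR adjusted p = 0.000381). ATF3 and ATF4 thus moved in opposite directions between the dish-grown groups.

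DDIT3 (ENSG00000175197, chromosome 12, 57516588 to 57521737) encodes CHOP, a factor that drives death under lasting ER stress. It was at 59.1 and 63.7 CPM in ITGB4-high, 55.1, 60.4 and 64.6 in ITGB4-low and 58.5, 56.0 and 57.8 in lung-recovered libraries. The dish-grown groups overlapped throughout. The log2 fold change in ITGB4-low was -0.03 (edgeR adjusted p = 0.705), and 2 SE either side of it ran from -0.16 to 0.10. It changed sign without the second ITGB4-high library (0.017) or the first ITGB4-low library (0.028).

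**Figure D2:**
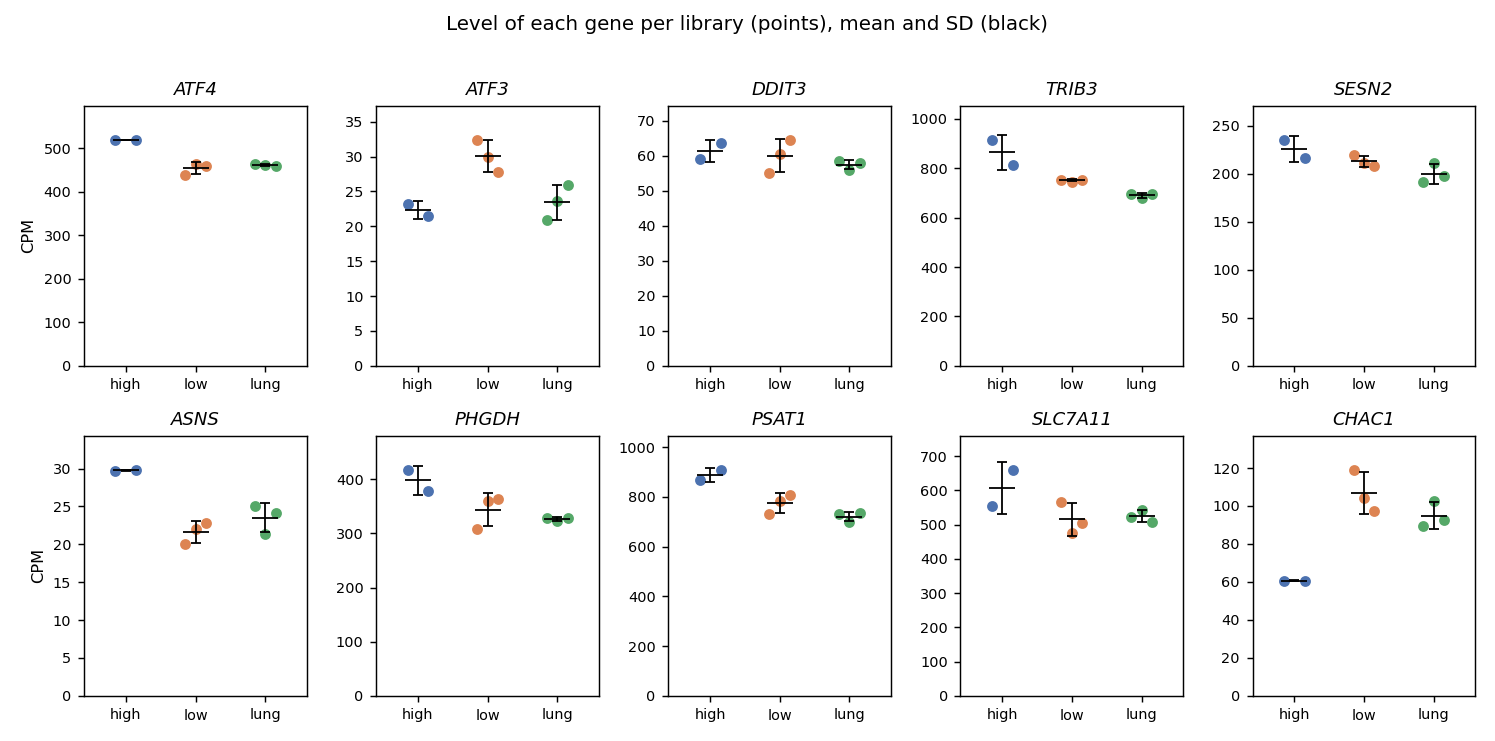
CPM of the 10 genes in each library (points) for ITGB4-high (2 libraries), ITGB4-low (3) and lung-recovered cells (3), with the mean and SD of each group in black and each axis starting at 0. ATF4, ASNS and PSAT1 are highest in both ITGB4-high libraries, CHAC1 is lowest there, and ATF3 is highest in ITGB4-low.

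TRIB3 (ENSG00000101255, chromosome 20, 362835 to 397559), a pseudokinase that binds ATF4 and dampens it, was at 915.5 and 813.2 CPM in ITGB4-high, 753.4, 745.8 and 752.7 in ITGB4-low and 695.2, 679.9 and 695.2 in lung-recovered libraries. The groups formed 3 steps with no overlap. TRIB3 was 13.2% lower in ITGB4-low than in ITGB4-high, or -0.20 on the log2 scale (SE 0.05, edgeR adjusted p = 0.00163). The gap between the ITGB4-high libraries was wide, and the value ran from -0.29 to -0.12 when single libraries were left out.

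SESN2 (ENSG00000130766, chromosome 1, 28259527 to 28282491) encodes a leucine sensor that holds back mTORC1, the growth kinase complex. Its level was 235.6 and 216.1 CPM in ITGB4-high, 219.5, 211.5 and 208.4 in ITGB4-low and 191.1, 211.1 and 197.5 in lung-recovered libraries. The dish-grown groups overlapped by 1 library. The log2 fold change in ITGB4-low was -0.08 (SE 0.05, edgeR adjusted p = 0.181). Without the second ITGB4-high library it was -0.15 and passed (adjusted p = 0.0487).

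ASNS (ENSG00000070669, chromosome 7, 97852118 to 97872542) makes asparagine from aspartate and glutamine and is a textbook target of ATF4, through an element of the kind shown above. It was at 29.7 and 29.8 CPM in ITGB4-high, 19.996, 21.98 and 22.80 in ITGB4-low and 25.1, 21.4 and 24.1 in lung-recovered libraries. Both ITGB4-high libraries were above every clone 1 library. The fall in ITGB4-low was 27.3%, the largest among the 10 genes (log2 fold change -0.46, SE 0.08, edgeR adjusted p = 4.73e-05). Its 110 tested neighbours within 5 Mb had a median of -0.10.

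PHGDH and PSAT1 catalyse the opening and the next step of serine synthesis from a glycolysis intermediate. PHGDH (ENSG00000092621, chromosome 1, 119648411 to 119744226) was at 417.1 and 378.5 CPM in ITGB4-high, 308.3, 359.5 and 363.6 in ITGB4-low and 327.4, 322.6 and 328.7 in lung-recovered libraries. PSAT1 (ENSG00000135069, chromosome 9, 78297143 to 78330093) was at 869.7 and 908.8, then 729.7, 785.7 and 806.8, then 730.0, 698.6 and 733.8 CPM. For both enzymes the ITGB4-high libraries were above all others, and the first ITGB4-low library was the lowest of its group. The log2 fold change in ITGB4-low was -0.21 for PHGDH (SE 0.06, edgeR adjusted p = 0.00614) and -0.20 for PSAT1 (SE 0.05, adjusted p = 0.00200). The PHGDH call was lost without the first ITGB4-high library (-0.15, adjusted p = 0.0962). The 15 tested neighbours of PSAT1 had a median of 0.20, of opposite sign to PSAT1 itself.

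SLC7A11 (ENSG00000151012, chromosome 4, 138164097 to 138242349) is the cystine importer that feeds glutathione synthesis. It was at 553.5 and 660.0 CPM in ITGB4-high, 567.3, 474.5 and 505.0 in ITGB4-low and 521.4, 543.4 and 508.9 in lung-recovered libraries. The second ITGB4-high library was the highest, and the first ITGB4-low library lay above the first ITGB4-high one. The log2 fold change in ITGB4-low was -0.23 (SE 0.07, edgeR adjusted p = 0.00739), and the call rested on that second ITGB4-high library, since without it the value was -0.11 (adjusted p = 0.245).

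CHAC1 (ENSG00000128965, chromosome 15, 40952962 to 40956519) degrades glutathione inside the cell and is induced by ATF4. It was at 60.7 and 60.3 CPM in ITGB4-high, 119.0, 104.3 and 97.2 in ITGB4-low and 89.3, 102.8 and 92.6 in lung-recovered libraries. All 6 clone 1 libraries were far above both ITGB4-high libraries. CHAC1 was 76.4% higher in ITGB4-low, or 0.82 on the log2 scale (SE 0.07, edgeR adjusted p = 1.22e-08), and 0.74 to 0.89 when single libraries were left out. The change was larger in size than that of any of the other 9 genes, and its 98 tested neighbours had a median of 0.10. The mRNA of the glutathione-degrading gene and that of the cystine importer moved in opposite directions, although the SLC7A11 call rested on the second ITGB4-high library.

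**Figure D3:**
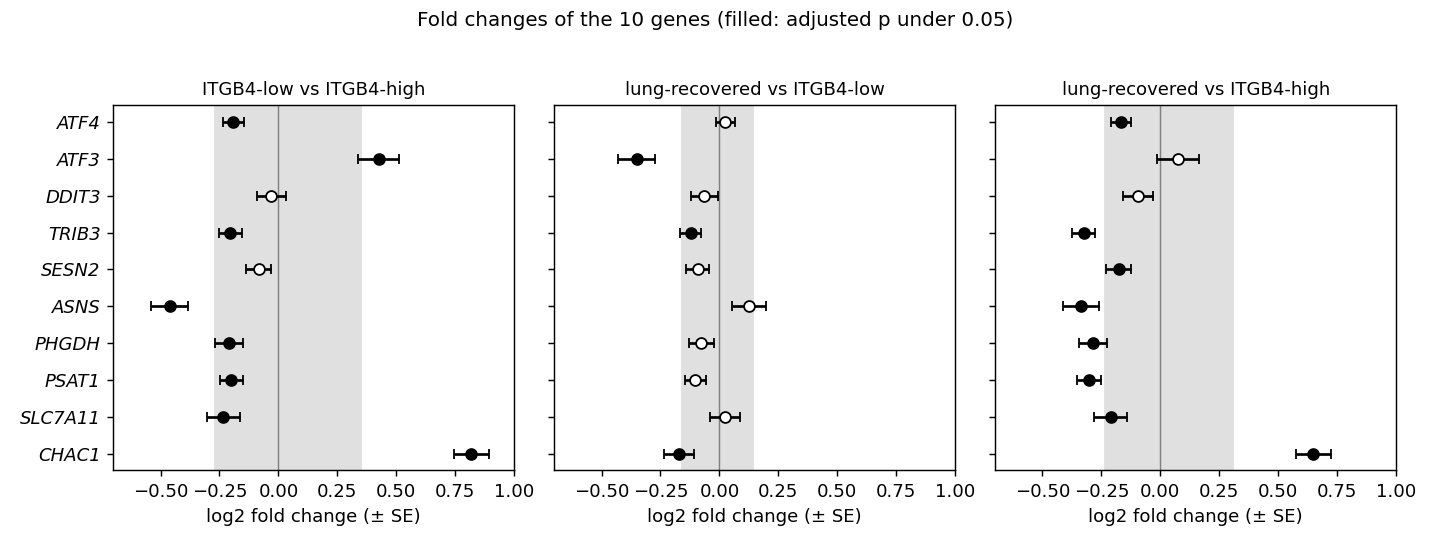
Log2 fold change with its standard error for the 10 genes in 3 comparisons, with filled points for an adjusted p under 0.05 and a grey band between the quartiles of all tested genes. Most points lie on the lower side of 0 and near or inside the band, with CHAC1 far to the right of it in both comparisons with ITGB4-high.

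The second comparison asked how clone 1 cells from the bleomycin-treated lung differed from the same clone in dishes. It shares its ITGB4-low libraries with the comparison above, so the direction of a gene in one is not independent of the other. ATF3, CHAC1 and TRIB3 fell, none rose, and ATF4, ASNS, DDIT3, SESN2, PHGDH, PSAT1 and SLC7A11 did not pass the test. That is 0 higher and 3 lower of 10, where 14.7% and 15.4% of all tested genes were higher and lower and 30.1% were called in all, so the share called among the 10 was near that of all genes. The groups did not overlap in 2 of the 10 genes (ATF3 and TRIB3), against 43.3% of all tested genes. The median log2 fold change was -0.08, beside 0.00 for all genes.

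ATF3 was 21.6% lower in lung-recovered than in ITGB4-low libraries (log2 fold change -0.35, SE 0.08, edgeR adjusted p = 0.00183), and it passed in each fit that left out 1 library (-0.43 to -0.27). Its lung-recovered mean of 23.5 ± 2.51 CPM (SD, n = 3) lay within the spread of the 22.3 ± 1.25 CPM of ITGB4-high (n = 2). TRIB3 fell by 8.07% (log2 fold change -0.12, SE 0.04, edgeR adjusted p = 0.0462). CHAC1 fell by 11.1% (-0.17, SE 0.06, adjusted p = 0.0489), and its libraries overlapped, since the second lung-recovered library (102.8 CPM) was above ITGB4-low replicate 3 (97.2 CPM).

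The last 2 calls lay at the threshold. With RLE scaling in place of TMM both were lost (adjusted p = 0.0523 for TRIB3 and 0.0528 for CHAC1), which left 1 of the 10 genes. CHAC1 was also lost with DESeq2 (0.0664) and with limma-voom (0.0550). It was -0.09 without the first ITGB4-low library, the one highest in CHAC1 (adjusted p = 0.262), -0.19 without the second (0.0693), -0.13 and -0.15 without lung-recovered replicate 1 or 3 (0.241 and 0.156), and -0.17 without either ITGB4-high library (0.0683 and 0.0639). TRIB3 was -0.13 to -0.11 without ITGB4-low replicate 2 or 3 (0.0969 and 0.105) or any 1 lung-recovered library (0.106 to 0.123), so that its size held while the call did not. Without the first ITGB4-low library PSAT1 and PHGDH passed as lower (-0.14, adjusted p = 0.00742, and -0.15, adjusted p = 0.0104), and 4 genes were called.

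ATF4 differed by 0.02 between these groups (log2, SE 0.04, edgeR adjusted p = 0.686), and 2 SE either side ran from -0.05 to 0.10. For ASNS the log2 difference was 0.12 (SE 0.07, adjusted p = 0.219), and for DDIT3 it was -0.06 (SE 0.06, adjusted p = 0.431). SESN2 (-0.09), PHGDH (-0.08) and PSAT1 (-0.10) were each a little lower on average, with adjusted p of 0.152, 0.328 and 0.0929. SLC7A11 differed by 0.02 (SE 0.06, adjusted p = 0.811) and turned to -0.031 or -0.00070 without the second ITGB4-low or the second lung-recovered library. For each of these 7 genes the interval of 2 SE either side ran no further than -0.19 and 0.27 on the log2 scale.

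The last comparison put lung-recovered beside ITGB4-high cells and shares libraries with both comparisons above. CHAC1 was the 1 gene that was higher, and ATF4, TRIB3, SESN2, ASNS, PHGDH, PSAT1 and SLC7A11 were lower. That is 7 of 10 lower, where 25.0% of all tested genes were lower, 26.2% higher and 51.2% called in all. The groups did not overlap in 9 of the 10 genes, all but ATF3, against 66.8% of all tested genes. The median log2 fold change of the 10 genes was -0.19, beside 0.01 for all genes.

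CHAC1 was 56.7% higher in lung-recovered than in ITGB4-high libraries (log2 fold change 0.65, SE 0.07, edgeR adjusted p = 4.22e-07). ASNS was -0.34 (SE 0.08, adjusted p = 0.00110), TRIB3 -0.32 (SE 0.05, adjusted p = 1.65e-05), PSAT1 -0.30 (SE 0.05, adjusted p = 3.99e-05) and PHGDH -0.29 (SE 0.06, adjusted p = 0.000546). ATF4 itself was -0.17 (SE 0.04, adjusted p = 0.00344), so these 4 genes had fallen further in mRNA than the factor, a difference that was not tested. ATF3 was 0.07 (adjusted p = 0.519) and changed sign, to -0.0079, without the third lung-recovered library. DDIT3 was -0.09 (adjusted p = 0.220), although its 3 lung-recovered libraries all lay under both ITGB4-high ones.

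SESN2 was 11.5% lower (log2 fold change -0.18, SE 0.05, edgeR adjusted p = 0.00790). Its call was lost without ITGB4-high replicate 1 (-0.12, adjusted p = 0.136) and also without lung-recovered replicate 1 (-0.14, 0.0654). SLC7A11 was 13.5% lower (-0.21, SE 0.07, adjusted p = 0.0165). Its call was lost without ITGB4-high replicate 2 (-0.08, adjusted p = 0.395), lung-recovered replicate 1 (-0.20, 0.0543) or lung-recovered replicate 3 (-0.19, 0.0648).

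Added together, the 10 genes took 3671 and 3682 CPM in ITGB4-high, 3244 to 3308 CPM in ITGB4-low and 3122 to 3125 CPM in lung-recovered libraries. These sums formed 3 steps with no overlap, which were not tested, and most of each sum came from the abundant PSAT1, TRIB3, SLC7A11, ATF4 and PHGDH. From ITGB4-low to lung-recovered libraries the means of TRIB3 (750.6 to 690.1 CPM), PSAT1 (774.1 to 720.8) and PHGDH (343.8 to 326.2) fell. Those of ATF4 (454.1 to 462.1) and SLC7A11 (515.6 to 524.6) were slightly higher. Of these genes TRIB3 alone was called in that comparison, so the second step is not a fall of the whole set. No 1 library was low or high in all genes: within its group, each of the 8 libraries was the highest for 1 to 5 of the 10 genes and the lowest for 2 to 5.

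Over the 8 libraries, the genes most like ATF4 in pattern among 9521 genes with a mean of at least 10 CPM were PLA2G12A, PFN2 and RPL23 (Pearson r of log2 CPM 0.997, 0.997 and 0.996). Those most like ASNS were GYG1 (0.993), HSPA9 and RPL9 (both 0.984). These values describe 8 points that share 3 group means, so a gene that differs between ITGB4-high and the clone 1 groups by any amount can score high.

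The genes around ATF4 in its pathway were read from 10 lists holding 125 genes, of which 122 were tested. The share called was 67.2% in ITGB4-low against ITGB4-high, 47.5% in lung-recovered against ITGB4-low and 62.3% in lung-recovered against ITGB4-high, beside 56.2%, 30.1% and 51.2% of all tested genes. By direction, 28.6% of all tested genes were higher and 27.6% lower in the first of these comparisons. In the second 14.7% were higher and 15.4% lower, and in the third 26.2% and 25.0%. The counts of each list below are to be read beside these shares. Of the genes of the eIF2alpha kinases, their activator, their substrate and the opposing phosphatase subunits, 1 of 8 rose and 3 fell in ITGB4-low (median log2 fold change -0.06). The heme-sensing kinase gene EIF2AK1 was -0.29 (SE 0.05, edgeR adjusted p = 2.63e-05) and PPP1R15A, the stress-induced phosphatase subunit that removes the mark, was -0.22 (SE 0.05). EIF2AK4, the kinase GCN2 that senses uncharged tRNA, was 0.12 (SE 0.05, neighbours' median 0.08). After the lung stay 1 of these 8 rose against ITGB4-low and 0 fell: PPP1R15A at 0.14 (SE 0.04). Of 7 other stress transcription factors, 2 rose and 0 fell in ITGB4-low, ATF5 (0.43, SE 0.08) and the antioxidant factor NFE2L2 (0.13, SE 0.05). The tested neighbours within 5 Mb had a median of -0.10 for ATF5 and of 0.12, near the value of the gene itself, for NFE2L2. Against ITGB4-low, 0 rose and 5 of 7 fell in lung-recovered cells, ATF5 at -0.37 (SE 0.07) and CEBPB, a partner of ATF4, at -0.25 (SE 0.07). ATF5, itself an ATF4 target controlled in translation as ATF4 is, was called higher in ITGB4-low than in ITGB4-high and lower in lung-recovered than in ITGB4-low, as ATF3 was.

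Enzymes around PHGDH and PSAT1 showed no common direction. Of 11 tested serine, glycine and one-carbon enzymes, 2 rose and 3 fell in ITGB4-low (median -0.04), and 3 rose and 1 fell in lung-recovered against ITGB4-low (median 0.11). Beside them, 28.6% of all tested genes rose and 27.6% fell in the first comparison, and 14.7% and 15.4% in the second. The cytosolic serine hydroxymethyltransferase SHMT1 was 1.18 (SE 0.08), but its 78 tested neighbours within 5 Mb had a median of 0.76. The folate enzyme gene ALDH1L1, at 1.96 and 1.87 CPM in ITGB4-high, was at 0.121 to 0.328 CPM in ITGB4-low and at 1.05 to 1.80 CPM in lung-recovered libraries (-3.26, SE 0.39, in ITGB4-low and 2.74, SE 0.40, after the lung). PSPH, which completes serine synthesis, was -0.14 in lung-recovered against ITGB4-low (SE 0.05). Of 13 enzymes of proline, aspartate, glutamine and transamination, 6 rose and 5 fell in ITGB4-low, glutamine synthetase GLUL at 0.52 (SE 0.06) and the arginine-synthesis enzyme ASS1 at -0.49 (SE 0.07). Of the 13, 4 rose and 2 fell in lung-recovered against ITGB4-low, where GLUL and ASS1 were at -0.50 and 0.45.

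Of 15 tested amino-acid transporters, 8 rose and 2 fell in ITGB4-low (median 0.11). The glutamate and cysteine carrier SLC1A1 went from 0.867 and 1.17 CPM in ITGB4-high to 8.25 to 8.88 CPM in ITGB4-low (log2 fold change 3.06, SE 0.17), and the neutral amino-acid carrier SLC1A4 rose by 1.25 (SE 0.07). Their direction was opposite to that of SLC7A11, whose call rested on the second ITGB4-high library. The glutamate carrier SLC1A3 was -0.39 (SE 0.07). Among the 15, 2 rose and 5 fell in lung-recovered against ITGB4-low, SLC43A2 at 0.35 (SE 0.07), SLC1A3 at -0.39 (SE 0.06) and SLC1A4 at -0.34 (SE 0.05). Of 20 cytosolic aminoacyl-tRNA synthetases, 7 rose and 6 fell in ITGB4-low, the asparagine enzyme NARS1 at 0.38 (SE 0.05, neighbours' median 0.51) and the isoleucine enzyme IARS1 at -0.34 (SE 0.05). Of the 20, 4 rose and 3 fell in lung-recovered against ITGB4-low, all by less than 0.20, with CARS1 at 0.19 (SE 0.04, neighbours' median 0.20) and AARS1 at -0.14 (SE 0.04).

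Of 14 cysteine and glutathione genes, 6 rose and 5 fell in ITGB4-low (median 0.18). The largest rise was that of GGT5, which splits glutathione conjugates outside the cell, at 1.40 and 2.04 CPM in ITGB4-high and 3.30 to 5.63 CPM in ITGB4-low (1.498, SE 0.22). CTH, which makes cysteine from cystathionine, was 0.86 (SE 0.06), the same direction and nearly the same size as CHAC1, while the heme oxygenase gene HMOX1 was -1.05 (SE 0.10). Of the 14, 8 rose and 3 fell in lung-recovered against ITGB4-low (median 0.14). GGT5 was at 19.4 to 20.8 CPM in lung-recovered libraries (2.04, SE 0.13), and the thioredoxin reductase TXNRD1 was -0.50 (SE 0.04). Of 11 mTORC1-linked genes and relatives of TRIB3, 3 rose and 2 fell in ITGB4-low and 2 rose and 3 fell in lung-recovered against ITGB4-low. Besides brakes on mTORC1, the mTORC1-linked genes include the Rag GTPase genes RRAGC and RRAGD and the mTORC1 substrate gene EIF4EBP1, which are not brakes on it. RRAGD, a Rag GTPase of amino-acid signalling to mTORC1, was 1.85 (SE 0.21) in ITGB4-low and SESN1, a relative of SESN2, -0.33 (SE 0.10), while SESN3 was -0.69 (SE 0.12) in lung-recovered against ITGB4-low. TRIB2, a pseudokinase related to TRIB3, was 0.71 (SE 0.13, neighbours' median 0.34) and 1.10 (SE 0.10, neighbours' median -0.0016) in these comparisons. It was at 13.6 to 15.5 CPM in lung-recovered libraries, where TRIB3 was at its lowest.

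**Figure D4:**
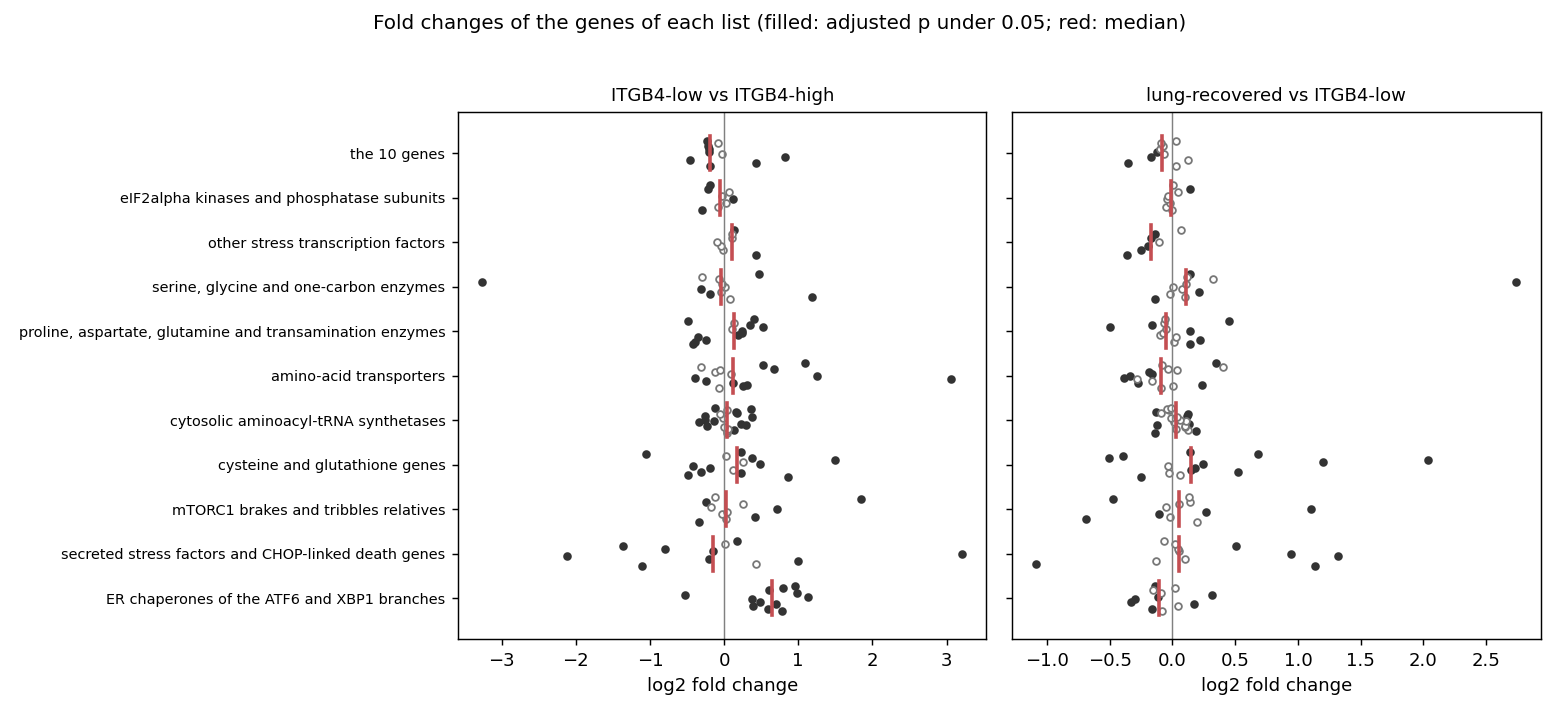
Log2 fold change of each tested gene of the 10 genes and of 10 pathway lists in ITGB4-low against ITGB4-high (left) and lung-recovered against ITGB4-low (right), filled for an adjusted p under 0.05, with the list's median in red. Most lists lie on both sides of 0, and the ER chaperone list stands to the right in the left panel (median 0.65). The list labelled mTORC1 brakes also holds the Rag GTPase genes RRAGC and RRAGD and the mTORC1 substrate gene EIF4EBP1.

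Of 11 secreted stress factors and death genes linked to CHOP, 3 rose and 6 fell in ITGB4-low. VLDLR, a lipoprotein receptor gene, was at 0.339 and 0.506 CPM in ITGB4-high, 3.35 to 4.64 in ITGB4-low and 6.88 to 8.12 in lung-recovered libraries (3.21, SE 0.27, in ITGB4-low). The secreted peptide gene ADM2 was at 22.8 and 23.3 CPM in ITGB4-high, 5.23 to 5.34 in ITGB4-low and 11.95 to 14.3 in lung-recovered libraries. Its log2 fold change was -2.12 in ITGB4-low against ITGB4-high (SE 0.10) and 1.32 in lung-recovered against ITGB4-low (SE 0.10). The stress hormone gene GDF15 was at 36.8 and 40.9, then 16.8 to 19.4, then 37.99 to 40.6 CPM (-1.11, SE 0.07, and 1.13, SE 0.07). STC2, a secreted glycoprotein, went the other way, at 338.5 and 349.2 CPM in ITGB4-high and 635.9 to 754.8 in ITGB4-low (0.99, SE 0.06). The death gene BCL2L11 was -1.36 in ITGB4-low (SE 0.13), while DDIT3, the gene of CHOP, did not pass. In lung-recovered against ITGB4-low 4 of the 11 rose and 1 fell, FGF21 (-1.09, SE 0.25), which was under 3 CPM in every library.

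The ER chaperone list holds 12 genes linked to the ATF6 and XBP1 branches of the same unfolded protein response. Besides chaperones it holds genes of ER-associated degradation, such as HERPUD1 and EDEM1. The list was set beside the ATF4 branch, but which branch drives each gene was not tested, so it is not a clean contrast. Of the 12 genes, 11 rose and 1 fell in ITGB4-low (median log2 fold change 0.65). PDIA4, a disulfide isomerase, was at 165.0 and 174.3 CPM in ITGB4-high and 355.5 to 384.6 in ITGB4-low (1.13, SE 0.05), SDF2L1 was 0.98 (SE 0.08) and EDEM1, which marks misfolded glycoproteins for disposal, was -0.53 (SE 0.05). The median of the 10 ATF4-linked genes in the same comparison was -0.20, and this difference between lists was not tested. In lung-recovered against ITGB4-low 2 of 12 rose and 5 fell (median -0.11), with EDEM1 at 0.32 (SE 0.04) and HERPUD1, a component of ER-associated degradation, at -0.33 (SE 0.04).

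**Figure D5:**
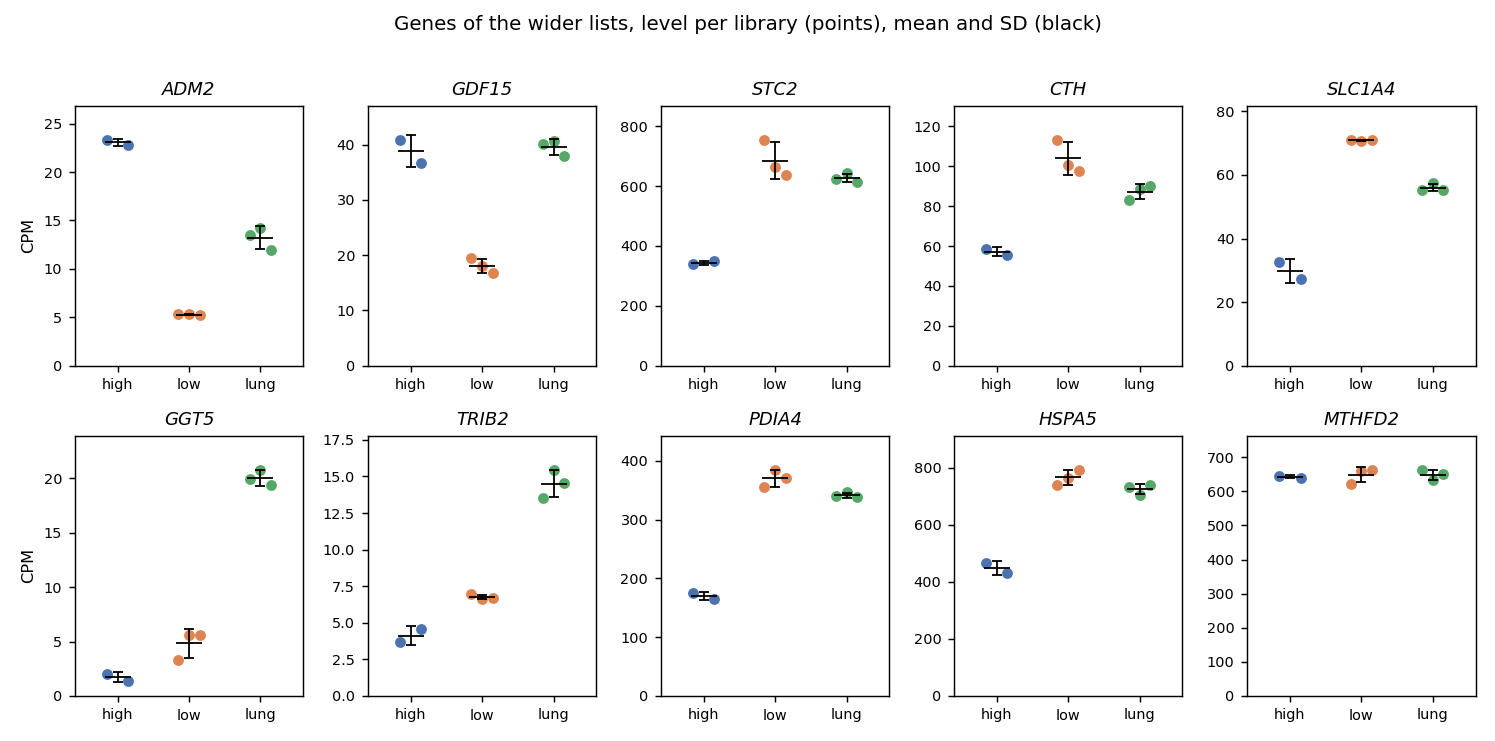
CPM of 10 genes of the wider lists in each library (points), with the mean and SD of each group in black and each axis starting at 0. The panels were chosen after the values were seen, and ADM2 and GDF15 are lowest in ITGB4-low while CTH, SLC1A4 and STC2 are lowest in ITGB4-high.

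In lung-recovered against ITGB4-high cells, 26.2% of all tested genes were higher and 25.0% lower. There 0 of 8 eIF2alpha genes rose and 3 fell (EIF2AK1 at -0.30, SE 0.05). Of 7 other stress factors 1 rose, NFE2L2 (0.20, SE 0.05, neighbours' median 0.16). Among the 3 that fell were the ATF4 partner genes CEBPB (-0.26, SE 0.08) and CEBPG (-0.23, SE 0.04). Of 11 serine and one-carbon enzymes 3 rose and 2 fell, from SHMT1 at 1.28 (SE 0.08, neighbours' median 0.79) to MTHFD1L at -0.23 (SE 0.05). Of 13 proline, aspartate and glutamine enzymes 4 rose and 3 fell, from the aspartate aminotransferase GOT2 at 0.38 (SE 0.05) to the proline enzyme PYCR1 at -0.37 (SE 0.04). Of 15 transporters 7 rose and 5 fell, from SLC1A1 at 2.78 (SE 0.18) to SLC1A3 at -0.78 (SE 0.07). Of 20 synthetases 6 rose and 5 fell, from NARS1 at 0.42 (SE 0.05, neighbours' median 0.51) to IARS1 at -0.33 (SE 0.05). Among 14 cysteine and glutathione genes 8 rose and 4 fell, from GGT5 at 3.53 (SE 0.18) to the lipid-peroxide reductase GPX4 at -0.46 (SE 0.05). Of the 11 mTORC1-linked genes and TRIB3 relatives 4 rose and 2 fell, from TRIB2 at 1.81 (SE 0.12, neighbours' median 0.28) to SESN3 at -0.66 (SE 0.13). Of the 11 secreted and death genes 2 rose and 3 fell, from VLDLR at 4.16 (SE 0.24) to BCL2L11 at -0.85 (SE 0.12). Of the 12 genes on the ER chaperone list 10 rose and 1 fell (median 0.57), from PDIA4 at 1.01 (SE 0.05) to EDEM1 at -0.21 (SE 0.05). The medians of all lists but the last lay between -0.09 and 0.21.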

How the data were processed

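The authors deposited raw counts, whole-number read counts per Ensembl gene, 1 column per library. STAR 2.7.1a and the build hg38 are named in the submitters' processing notes, while the sources used here name no counting program, strand setting or annotation. The libraries keep strand through dUTP, per the labels' protocols. Symbols and positions came from GENCODE 29, which held 58216 of 58336 identifiers. All 8 libraries entered 1 edgeR 4.0.16 fit (R 4.3.3) with a term per group, filterByExpr, TMM factors and the quasi-likelihood F test, with Benjamini-Hochberg adjustment over 15220 genes and calls at an adjusted p under 0.05. With 5 residual degrees of freedom, the biological coefficient of variation came to 0.0452. SE is the log2 fold change over the square root of F. Levels are CPM after TMM scaling. The fits were tested on simulated data. Alternatives were RLE and upper-quartile scaling, other low-count filters, DESeq2 1.42.0, limma-voom 3.58.1, a replicate block, pairwise fits and leaving out each library. List genes named come from the up to 2 largest rises and 2 largest falls called per list and comparison at 1 CPM or more in a group, of which the text gives the largest of each and some of the next. GDF15 in ITGB4-low was named after its values were seen. The members, lists and tests were chosen with earlier results of these data known. Set tests were not run.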

Additional observations from a re-analysis of the deposited data

How the results depend on the processing

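The counts of the 10 genes called were 8 in ITGB4-low against ITGB4-high, 3 in lung-recovered against ITGB4-low and 8 in lung-recovered against ITGB4-high. The middle count was 1 with RLE scaling and 1 with the replicate block, 2 with DESeq2, limma-voom or a fit of the 2 groups alone, and 1 to 4 when single libraries were left out (1 without ITGB4-low replicate 2, lung-recovered replicate 1 or lung-recovered replicate 3). The other 2 counts were 7 to 8 and 6 to 8 when single libraries were left out. The values that changed sign, none of them called, were those of DDIT3 in ITGB4-low against ITGB4-high (0.017 without ITGB4-high replicate 2, 0.028 without ITGB4-low replicate 1, -0.092 to 0.028 over all libraries left out), SLC7A11 in lung-recovered against ITGB4-low (-0.031 without ITGB4-low replicate 2, -0.00070 without lung-recovered replicate 2) and ATF3 in lung-recovered against ITGB4-high (-0.0079 without lung-recovered replicate 3, up to 0.15 without others). The cause was not tested. Calls over the 122 tested genes of the pathway lists numbered 82, 58 and 76 (67.2%, 47.5% and 62.3%, beside 56.2%, 30.1% and 51.2% of all genes), and 73 to 84, 41 to 59 and 68 to 81 when single libraries were left out. Deviations of same-numbered libraries from their group means had correlations of -0.25 to 0.10. The 2 ITGB4-high libraries mirror each other by construction, so their pairs tell little. Between ITGB4-low and lung-recovered libraries the same-numbered pairs were at 0.02, 0.07 and 0.10, and the different-numbered ones at -0.13 to 0.06. These values were small, and the numbers were not taken to pair the libraries. With the replicate block the 10 genes had 8, 1 and 7 calls, and SLC7A11 in lung-recovered against ITGB4-high was -0.19 (edgeR adjusted p = 0.0615). With no low-count filter 29057 genes were tested, of which 29.7%, 15.8% and 26.8% were called in the 3 comparisons. No scaling moved the median of all genes by more than 0.024. With 2 libraries in ITGB4-high, leaving out either leaves 1, which was assumed to vary like the other groups.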
